A study of Mus musculus with 18 samples.

Results

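Immediate early genes are the first genes that a cell transcribes when it is stimulated, and 10 of them (Fos, Fosb, Jun, Junb, Egr1, Egr2, Atf3, Ier2, Dusp1 and Nr4a1) were followed over 18 arrays of whole mouse mammary gland. They were chosen by symbol. On the array, 12 probe sets carried exactly 1 of these symbols, out of 45101 probe sets, and they gave 10 of the 18193 genes tested. Jun and Egr2 had 2 probe sets each and the other members had 1. None of the 10 was lost to a filter, because no filter on low values was used.

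The glands came from virgin female mice at 5, 6 or 7 weeks of age. RonTK-/- mice lack the tyrosine kinase domain of Ron (gene Mst1r), the receptor for macrophage-stimulating protein, and RonTK+/+ mice were the wild-type controls. Each of the 6 combinations of genotype and age had 3 arrays, and no group received a treatment. Total RNA was hybridised to Affymetrix GeneChip Mouse Genome arrays. The labels give neither the background strain nor whether the 3 arrays of a group were 3 animals, so each p-value measures the spread between these arrays, which may be technical. The deletion is not tied to a cell type by the labels, and the whole gland holds epithelium, fat, vessels, immune cells and, depending on the dissection, muscle and lymph node.

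In a resting cell these genes are nearly silent but open to transcription. Growth factor receptors act through Ras and the ERK kinases on serum response factor and its partners at CArG boxes, and cyclic AMP or calcium acts through CREB at cyclic AMP response elements (CRE). The transcripts appear within minutes, without new protein synthesis, and decay quickly. The same genes respond to stress, wounding and the dissociation or handling of tissue. The products of Fos, Fosb, Jun and Junb pair into the transcription factor AP-1. Atf3 encodes a stress-induced factor of the same leucine-zipper class, Egr1 and Egr2 encode zinc-finger factors, and Nr4a1 encodes the orphan nuclear receptor Nur77. Dusp1 encodes a phosphatase that switches off MAP kinases, and Ier2 encodes a small nuclear protein.

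RefSeq promoter entries (assembly GRCm38.p6) were matched by symbol for 8 of the 10 members. Egr1 and Ier2 had none. The array files name no genome build, and the sequences serve only to show the members' regulatory letters. Windows of 250 bases upstream of the start are printed for Nr4a1, Dusp1, Fos, Jun and Atf3. They were picked because their motifs, seen beforehand, show how the stimulus-response letters differ between members. For Egr2 the 30 bases around 1 of its CArG boxes are printed. Fosb and Junb, with 1 CRE core each, are not printed. Each runs 5′ to 3′ on the strand of the gene. Capitals mark TGACG or its reverse complement CGTCA, the core of a CRE, in Nr4a1, Dusp1 and Fos, with the full element in Dusp1 and the TATA box in Fos. They mark a CRE-like TGACATCA and a MEF2 box in Jun, a MEF2 box in Atf3 and a CArG box in Egr2. Atf3 also holds the CRE core CGTCA, unmarked, from position -7 counted from the start. Egr2 also has CRE cores upstream, which the bases shown do not hold whole.
Nr4a1, chr15:101266596-101266845, plus strand: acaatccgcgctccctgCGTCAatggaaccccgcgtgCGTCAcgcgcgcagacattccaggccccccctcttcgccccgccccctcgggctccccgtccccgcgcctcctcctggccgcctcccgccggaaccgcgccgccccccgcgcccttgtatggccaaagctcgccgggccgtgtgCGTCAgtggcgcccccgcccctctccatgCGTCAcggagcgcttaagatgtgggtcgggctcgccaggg
Dusp1, chr17:26508473-26508722, minus strand: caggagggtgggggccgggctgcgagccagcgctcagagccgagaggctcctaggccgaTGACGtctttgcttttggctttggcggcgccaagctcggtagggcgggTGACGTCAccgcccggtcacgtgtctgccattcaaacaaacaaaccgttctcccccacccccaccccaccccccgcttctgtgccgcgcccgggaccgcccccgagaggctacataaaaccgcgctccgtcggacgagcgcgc
Fos, chr12:85473640-85473889, plus strand: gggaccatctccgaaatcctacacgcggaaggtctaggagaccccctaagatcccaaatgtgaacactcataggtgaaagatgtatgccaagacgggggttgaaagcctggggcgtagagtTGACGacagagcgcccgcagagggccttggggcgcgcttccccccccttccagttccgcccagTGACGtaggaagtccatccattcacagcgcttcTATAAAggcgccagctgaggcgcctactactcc
Jun, chr4:95052223-95052472, minus strand: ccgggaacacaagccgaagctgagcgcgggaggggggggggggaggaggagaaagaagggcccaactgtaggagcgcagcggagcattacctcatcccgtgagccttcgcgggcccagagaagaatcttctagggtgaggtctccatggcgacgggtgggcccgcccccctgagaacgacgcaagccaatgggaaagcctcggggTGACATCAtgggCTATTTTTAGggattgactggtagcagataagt
Atf3, chr1:191183334-191183583, minus strand: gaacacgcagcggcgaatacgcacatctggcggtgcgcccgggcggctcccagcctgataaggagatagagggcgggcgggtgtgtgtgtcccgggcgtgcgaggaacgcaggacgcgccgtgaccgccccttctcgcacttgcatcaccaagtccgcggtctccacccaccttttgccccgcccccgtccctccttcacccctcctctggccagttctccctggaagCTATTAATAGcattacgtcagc
Egr2, chr10:67537787-67537816, plus strand: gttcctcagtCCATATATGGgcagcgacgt
The motifs were chosen with their matches in view, so the matches are a description. Both strands were searched in 32851 windows of 250 bases. The Nr4a1 window held CGTCA 4 times, and Fos held TGACG 2 times. A TGACG core on either strand was present in 17.8% of all windows. The full palindrome TGACGTCA was found in Dusp1, from position -143 counted from the start, and in 1.55% of all windows. It is read as a core on both strands, and Dusp1 held 3 cores in all when both readings were counted. Jun held TGACATCA, and the pattern TGACNTCA, which includes the palindrome, occurred in 7.49% of windows. MEF2 boxes, found in Jun and Atf3, had a background of 2.92%, CArG boxes, found in Egr2, 1.47%, and the TATAAA in Fos 12.4%. Egr2 has 5 starts in the table, and the stretch shown lies within 250 bases upstream of 3 of them. A different CArG box, CCTTTTTTGG, lies from position -72 of another Egr2 start and is not printed. The AP-1 pattern TGANTCA was not among the letters of any member's window and occurred in 6.75% of all windows.

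The deposited values are ratios, for most probe sets to the median of the RonTK+/+ arrays, so a value of 1 is that gene's own reference and levels of different genes cannot be set against each other. Member ratios ran from 0.388 to 3.11. On the log2 scale, the SD around the 6 group means was 0.13 for the median gene and 0.40 for the median member. Nr4a1 (0.72) and Egr2 (0.71) each stood at the 97th percentile of this spread among all genes, while Fosb (0.20) stood at percentile 70.9. Ron itself could not serve as a check of the genotypes. Mst1r ratios ran from 0.808 to 1.40 in RonTK+/+ and from 0.74 to 2.10 in RonTK-/- glands, and it is not known here whether its probe sets lie within the deleted stretch.

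Muscle content split the arrays before any result on the members. Averaged as log2 ratios, 22 skeletal muscle genes lay between -0.01 and 0.69 in 10 arrays and at or below -3.52 in the other 8. All 3 RonTK-/- arrays at 6 weeks were low in muscle transcripts and all 3 at 7 weeks were rich. RonTK+/+ array 2 was low at every age. So were array 3 of the 6-week controls and array 3 of the 5-week RonTK-/- glands. The B lymphocyte list was between -2.04 and 0.10 in the muscle-rich arrays and between 0.07 and 0.84 in the muscle-poor ones. In bulk tissue, fewer cells of a type and less RNA per cell cannot be told apart.

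**Figure D1:**
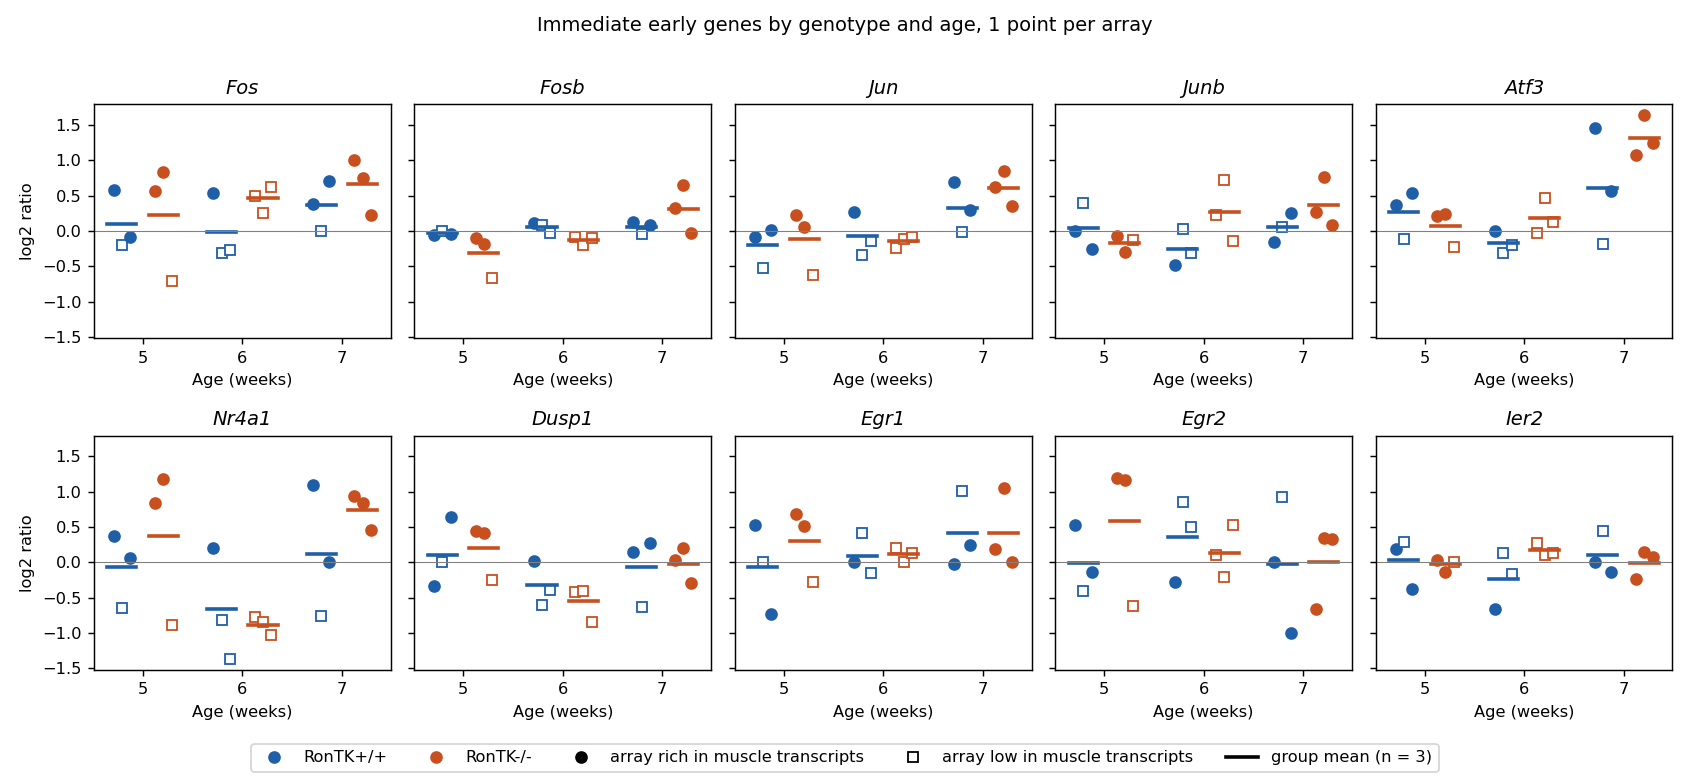
Log2 ratio of each gene (vertical axis) by age in weeks (horizontal axis) in RonTK+/+ (blue) and RonTK-/- (orange) glands. Each point is 1 array, filled circles are the 10 arrays rich in skeletal muscle transcripts, open squares the 8 low ones, and bars are means of 3 arrays. The open squares of Nr4a1 all lie below its filled circles, and Atf3 is above 1 in all 3 RonTK-/- arrays at 7 weeks.

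Between RonTK-/- and RonTK+/+ glands none of the 10 genes passed an adjusted p of 0.05 in limma, over the 3 ages or at any of them. Over the 3 ages, 0 of 10 members were called, against 0.0605% of all genes, and 0 had an unadjusted p under 0.05, against 3.77%. Of the 10 differences, 8 were above 0 (51.8% of all genes), with a median of 0.13 on the log2 scale against 0 for all genes. The largest were those of Fos, 0.30 with a 95% interval of -0.16 to 0.76, Atf3, 0.29 (-0.10 to 0.68), and Nr4a1, 0.28 (-0.39 to 0.96). Dusp1 differed by -0.02 (-0.38 to 0.33). These intervals leave room for differences of either sign, and none shows that the genotypes were alike. The arrays of the genotypes overlapped for all 10 members when the ages were put together, and 0.0715% of all genes did not overlap. At 5 weeks 0 of 10 members were called (0.011% of all genes), and 0 had an unadjusted p under 0.05 (3.42% of all genes).

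Among the AP-1 genes, Fos had ratios of 1.5, 0.868 and 0.942 in controls at 5 weeks against 1.48, 1.77 and 0.61 in RonTK-/- glands. At 6 weeks it had 1.46, 0.803 and 0.828 against 1.41, 1.20 and 1.54. At 7 weeks it had 1.30, 1.00 and 1.64 against 2.00, 1.69 and 1.18. The genotypes overlapped at every age, and 8 of the 9 RonTK-/- values were above 1. The remaining one, array 3 at 5 weeks, was the lowest Fos value of the series.

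Fosb stayed between 0.957 and 1.09 in the 9 RonTK+/+ arrays. Its RonTK-/- values were 0.934, 0.883 and 0.629 in the youngest glands, 0.948, 0.873 and 0.93 a week later, and 1.25, 1.57 and 0.979 in the oldest. It was the only member whose genotypes did not overlap at 5 weeks, where 8.21% of all genes did not, and at 6 weeks, where 14.3% did not. All RonTK-/- values at both ages lay below all RonTK+/+ values, by differences of -0.28 ± 0.15 (SE) and -0.18 ± 0.15 with limma adjusted p of 0.999 and 0.85. At 7 weeks the difference was 0.26 ± 0.15, and the test of a genotype difference that varies with age gave an unadjusted p of 0.0585 and an adjusted p of 0.697 in limma.

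Junb ran from 0.719 to 1.32 in RonTK+/+ and from 0.813 to 1.69 in RonTK-/- glands. At 6 weeks it was 1.17, 1.65 and 0.903 in RonTK-/- glands against 0.719, 1.02 and 0.804 in controls, a difference of 0.52 ± 0.23 (SE, limma unadjusted p = 0.0413, adjusted p = 0.795), and the arrays overlapped. At that age 6.15% of all genes had an unadjusted p under 0.05, and 0 of 10 members were called (0.0165% of all genes). Without RonTK-/- array 2 the difference was 0.29. Jun differed between the genotypes by 0.08, -0.07 and 0.27 at 5, 6 and 7 weeks, each with an SE of 0.24.

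Atf3 reached the highest ratio to its own reference among the members. At 5 weeks it was 1.28, 0.926 and 1.45 in controls against 1.16, 1.18 and 0.855 in RonTK-/- glands. At 6 weeks the controls had 1.00, 0.807 and 0.868 against 0.981, 1.38 and 1.09. At 7 weeks they had 2.76, 0.874 and 1.49 against 2.11, 3.11 and 2.36. At 7 weeks all RonTK-/- arrays were above 2, and RonTK+/+ array 1 lay among them while the other controls were lower.
The difference at 7 weeks was 0.71 ± 0.32 (SE, limma unadjusted p = 0.0429, adjusted p = 0.488), where 0 of 10 members were called (0.033% of all genes) and 9.75% of all genes had an unadjusted p under 0.05. All 10 members overlapped between the genotypes at this age, where 9.73% of all genes did not. Control array 2, the lowest, was also the 1 array at that age low in muscle transcripts. Without it the difference was 0.30. Without control array 1 it was 1.13.

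The zinc-finger genes differed more between arrays of a group than between groups. Egr1 ran from 0.601 to 2.01 in RonTK+/+ and from 0.826 to 2.08 in RonTK-/- glands. Egr2 was 2.29, 2.23 and 0.652 in the 3 RonTK-/- arrays at 5 weeks, so a single group spanned most of the range seen in the series. In RonTK+/+ glands at 7 weeks it was 1.00, 1.91 and 0.501. The genotype difference of Egr2 over the ages was 0.13 with an interval of -0.54 to 0.80, and that of Egr1 0.13 with -0.32 to 0.58. The 2 probe sets of Egr2 followed each other closely over the 18 arrays (r = 0.99), as did those of Jun (r = 0.91), so this spread was common to probe sets of 1 gene.

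Nr4a1 had a similarly wide spread. At 5 weeks its ratios were 1.30, 0.64 and 1.04 in controls against 1.80, 2.26 and 0.539 in RonTK-/- glands. The 6-week controls had 1.16, 0.571 and 0.388 against 0.586, 0.554 and 0.489. The 7-week controls had 2.14, 0.591 and 1.00 against 1.92, 1.79 and 1.37. Its low values were found in RonTK+/+ glands at every age and in RonTK-/- glands at 5 and 6 weeks.
Dusp1 ran from 0.646 to 1.55 in RonTK+/+ and from 0.559 to 1.36 in RonTK-/- glands. Ier2 had a narrow range, 0.635 to 1.36 and 0.851 to 1.21. At 6 weeks Ier2 differed by 0.40 ± 0.21 (SE, limma adjusted p = 0.806).

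**Figure D2:**
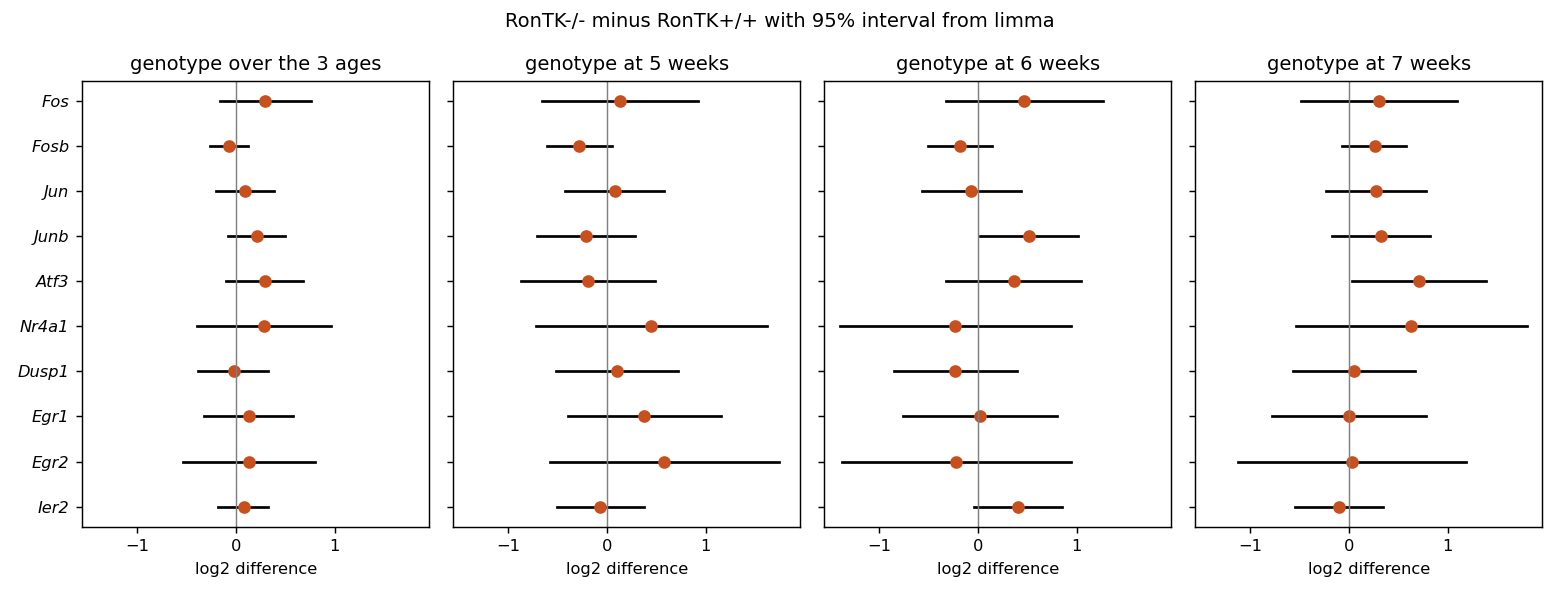
Difference in mean log2 ratio, RonTK-/- minus RonTK+/+ (horizontal axis), of each gene (vertical axis), over the 3 ages and at 5, 6 and 7 weeks. Points are differences and lines 95% intervals from limma. Intervals lie wholly above 0 for Junb at 6 weeks and Atf3 at 7 weeks, whose adjusted p-values were 0.795 and 0.488.

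With age, the smallest adjusted p of a member (0.146 in limma) was in RonTK-/- glands between 6 and 7 weeks, and no member was called. All genes also had their highest shares of unadjusted p under 0.05 and of arrays without overlap in this step. Between these ages, 0 of 10 members passed an adjusted p of 0.05, as did 0% of all genes, although 4 members (Fosb, Jun, Atf3 and Nr4a1) had an unadjusted p under 0.05, against 22.6% of all genes. The arrays of 5 members, these and Dusp1, did not overlap between the ages, against 38.3% of all genes. Nr4a1 was 1.63 ± 0.55 higher at 7 weeks (log2, SE, limma adjusted p = 0.157), from a mean ratio of 0.543 ± 0.0495 (SD, n = 3) to 1.69 ± 0.285. Atf3 was 1.13 ± 0.32 higher (adjusted p = 0.146 in limma), from 1.15 ± 0.206 to 2.53 ± 0.522.
Jun went from 0.845, 0.929 and 0.949 to 1.53, 1.80 and 1.27, a difference of 0.75 ± 0.24 (SE, limma adjusted p = 0.153). Fosb differed by 0.44 ± 0.15 (adjusted p = 0.16 in limma) and Dusp1 by 0.53 ± 0.29. Muscle transcripts moved with this step, from a list mean of -4.70 to 0.23, and in this genotype age and muscle content cannot be told apart from 6 to 7 weeks. With the muscle list as a covariate the step was 0.48 for Nr4a1, 0.61 for Atf3, 0.26 for Jun, 0.29 for Fosb and 0.03 for Dusp1. When the fit held only the groups compared, Atf3, Jun and Nr4a1 were called, among 3010 genes.

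The step from 5 to 6 weeks in RonTK-/- glands ran the other way for 2 members. Nr4a1 differed by -1.26 ± 0.55 and Dusp1 by -0.76 ± 0.29 (SE, limma adjusted p of 0.528 for both). Here too 0 of 10 members and 0% of all genes were called, and 8.76% of all genes had an unadjusted p under 0.05. Dusp1 was 1.36, 1.34 and 0.844 at 5 weeks and 0.75, 0.759 and 0.559 at 6 weeks, without overlap. Ier2 did not overlap either, being higher at 6 weeks, against 20.2% of all genes. Among arrays low in muscle transcripts, a single 5-week array remained, and the Nr4a1 difference was 0.01.

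In RonTK+/+ glands 0 of 10 members were called for a change with age, against 0.104% of all genes called, and none had an unadjusted p under 0.05, against 8.92%. From 5 to 6 weeks 0 of 10 members and 0% of all genes were called, and the smallest adjusted p among members was 1. None of the members had an unadjusted p under 0.05 in that step (4.17% of all genes did), and all overlapped (9.49% of all genes did not). From 6 to 7 weeks, where 0.011% of all genes were called, Atf3 differed by 0.78 ± 0.32 (SE, limma unadjusted p = 0.0268, adjusted p = 0.458), and 9.15% of all genes had an unadjusted p under 0.05. All 10 members overlapped between these ages, and 11.8% of all genes did not. That Atf3 value was 0.36 without array 1 at 7 weeks. Across the 3 ages in RonTK-/- glands 0 of 10 members were called (0.0385% of all genes), and Fosb, Jun, Atf3 and Nr4a1 had an unadjusted p under 0.05, as did 17.5% of all genes. In the test for a genotype difference that varies with age, 0 of 10 members and 0% of all genes were called, none of the members had an unadjusted p under 0.05 (6.82% of all genes did), and the smallest adjusted p among members was 0.697.

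Whatever the group, Nr4a1 separated the arrays by muscle content. Its ratio was 1.00 to 2.26 (median 1.58) in the 10 arrays rich in muscle transcripts and 0.388 to 0.64 (median 0.562) in the 8 low ones. It was the only 1 of the 10 members whose classes did not overlap, as was true of 7.66% of all genes, and nothing particular to the members is read from this. Atf3 had medians of 1.47 and 0.90, Fos 1.49 and 0.934, Jun 1.22 and 0.872, and Dusp1 1.13 and 0.754, in that order. Ier2 had medians of 0.957 and 1.10, and Junb of 0.978 and 1.03, so these 2 were the lower ones in muscle-rich arrays along with Egr2 (1.13 and 1.24). The classes were set on the muscle genes alone, at a log2 mean of -2 chosen after the list means were seen, and no test was made between them. The mean of 18 heat shock genes lay between 0 and 0.40 in the muscle-rich arrays and between -0.59 and -0.05 in the others, and the part of any of these in the members' values was not tested.

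**Figure D3:**
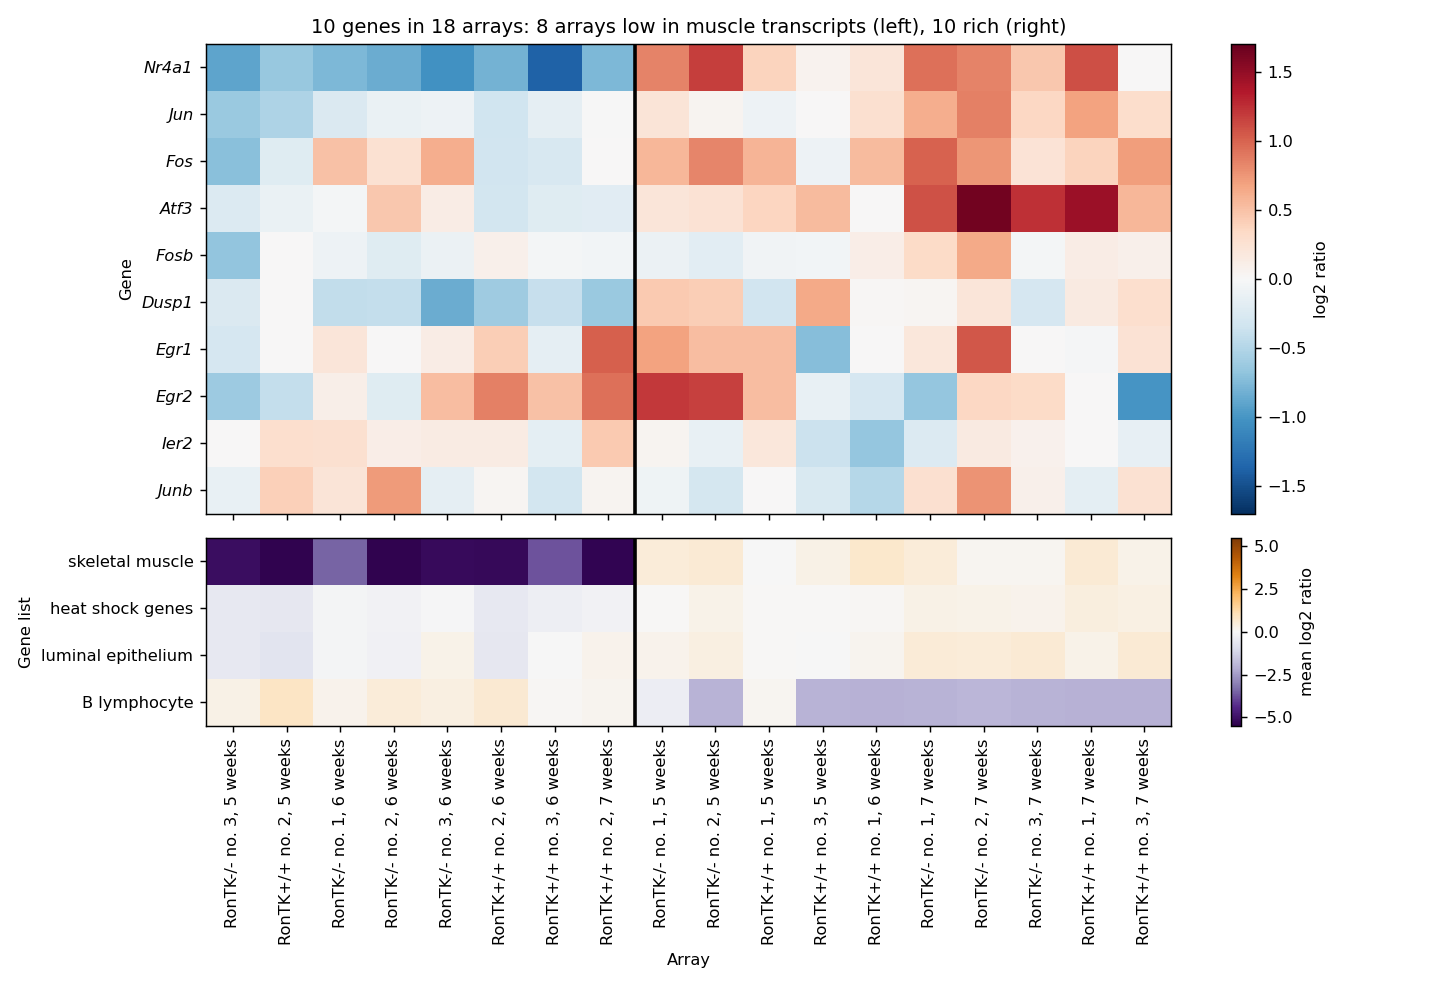
Log2 ratios of the 10 genes (upper rows) and mean log2 ratios of 4 gene lists (lower rows) in the 18 arrays (columns), with the 8 arrays low in skeletal muscle transcripts left of the line and the 10 rich ones right of it. Nr4a1 is below 0 in every array on the left and at or above 0 in every array on the right. Fos, Fosb, Egr1, Egr2, Ier2 and Junb take both signs on each side.

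The arrays with the most and the least signal over the members were both RonTK-/-, the first rich and the second low in muscle transcripts. In array 2 at 7 weeks all 10 members were above a ratio of 1 and 7 were at or above 1.5, with a mean log2 ratio of 0.72. That array held the series maximum of Fosb, Jun, Junb, Egr1 and Atf3. In array 3 at 5 weeks the mean was -0.44 and 5 members were below 0.67, and it held the minimum of Fos, Fosb and Jun.

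The members' deviations from their group means were compared in pairs over the 18 arrays. Nr4a1 falls into separate clusters of arrays and is left out of the pooled values. Of the 36 pairs of the other 9 members, 12 had an adjusted p under 0.05 for Pearson's r (permutation test, Benjamini-Hochberg over all 45 pairs), 10 of them with r above 0, and 10 also passed for Spearman's rho. These tests treat the 18 deviations as independent, although 6 group means were taken out, so their p-values are somewhat too small. The called pairs, 33.3% of the 36, had r of at least 0.55 in size, as had 19.2% of all pairs of genes on the array, and nothing particular to the members is read from this. Jun and Atf3 (r = 0.79, rho = 0.87, permutation adjusted p of 0.0012 and 0.000225), Fos and Jun (r = 0.76, rho = 0.71, permutation adjusted p of 0.0045 and 0.0186), and Jun and Dusp1 (r = 0.71, rho = 0.69, permutation adjusted p of 0.00793 and 0.019) moved together. A second set held Egr1 with Egr2 (r = 0.64, rho = 0.66, permutation adjusted p of 0.0188 and 0.019) and with Ier2 (r = 0.60, rho = 0.61, permutation adjusted p of 0.0293 and 0.0288). Ier2 and Dusp1 moved oppositely (r = -0.70, rho = -0.63, permutation adjusted p of 0.00793 and 0.0261). Without the 2 arrays farthest from the median, these r were 0.77, 0.67, 0.57, 0.62, 0.58 and -0.58 in the same order. The sets were seen in these data: among Fos, Fosb, Jun, Atf3 and Dusp1 all 10 pairs had r above 0, with a median of 0.64, and the 20 pairs between them and Egr1, Egr2, Ier2 and Junb had a median of -0.08.

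Within the muscle classes r was taken on deviations and on the log2 ratios. On deviations from the group means, Jun and Atf3 had r of 0.69 in the 10 muscle-rich and 0.68 in the 8 muscle-poor arrays, Fos and Jun 0.39 and 0.85, and Ier2 and Dusp1 -0.67 and -0.43. Egr1 had 0.51 and 0.86 with Egr2, and 0.66 and 0.72 with Ier2. Jun and Nr4a1 had 0.78 and 0.77, and Jun and Dusp1 0.52 and 0.62. Most group means mix both classes, so a deviation still carries how many muscle-poor arrays its group held. On the log2 ratios themselves, which keep differences between groups instead, Jun and Atf3 had 0.82 and 0.41, Fos and Jun 0.32 and 0.68, and Ier2 and Dusp1 -0.30 and -0.09. Egr1 had 0.45 and 0.74 with Egr2, and 0.59 and 0.75 with Ier2, while Jun and Nr4a1 had 0.43 and -0.30 and Jun and Dusp1 -0.10 and -0.71. On that scale 1 of 45 pairs passed for r and 0 for rho in the rich arrays, and 0 in the low ones. Of these 7 pairs, Jun with Dusp1 and Jun with Nr4a1 differed in sign between the measures in at least 1 class. The other 5 had 1 sign over both measures and classes. Without the 2 farthest arrays of a class, the r of log2 ratios was -0.14 for Fos and Jun in the rich arrays. It was 0.27 for Ier2 and Dusp1 in the low ones, and the other values of these 5 pairs kept their sign. With Nr4a1 added to the first set, its 15 pairs had a median r of log2 ratios of 0.32 in the rich and 0.05 in the low arrays. Pairs of the second set had 0.51 and 0.31, and pairs between the sets 0.15 and 0.27. The 2 sets were thus not set apart within the low arrays.

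**Figure D4:**
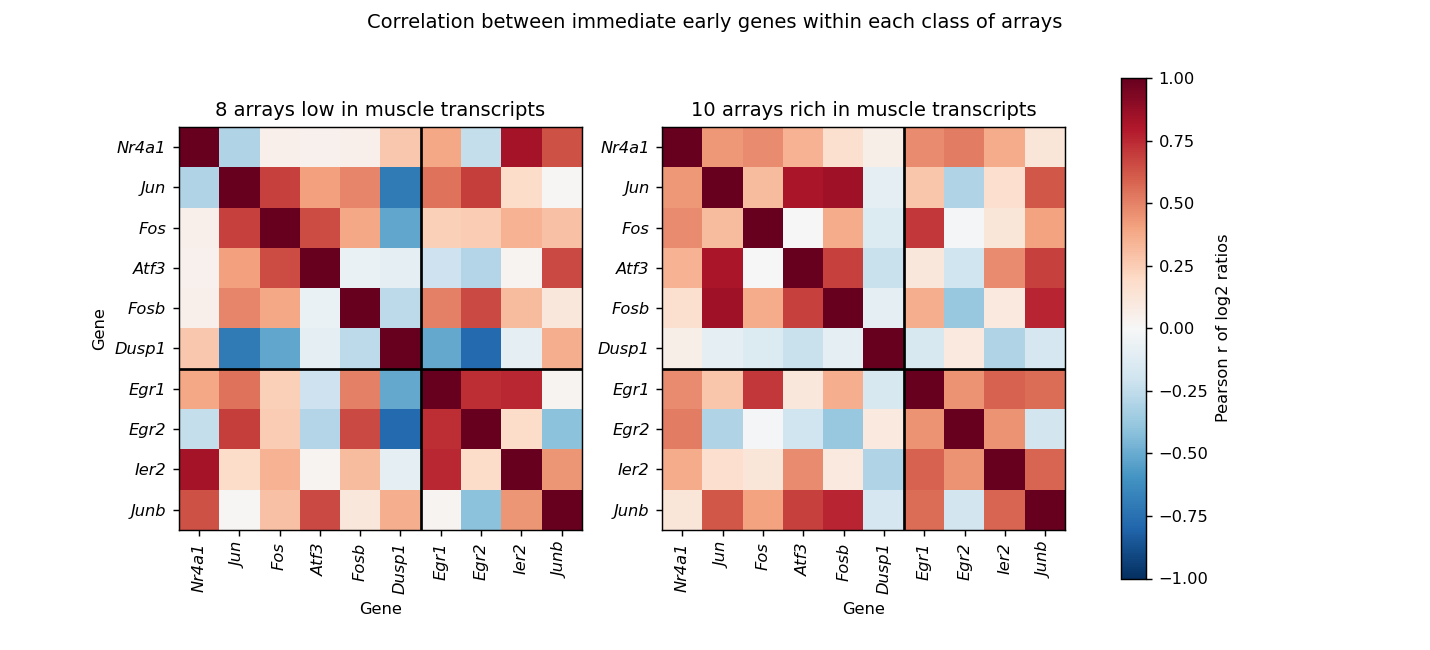
Pearson r between the log2 ratios of each pair of genes (both axes) within the 8 arrays low (left) and the 10 arrays rich (right) in skeletal muscle transcripts, from blue (-1) to red (1). Egr1 with Egr2 and with Ier2 is above 0 in both panels, and Jun with Nr4a1 is -0.30 on the left and 0.43 on the right, where on deviations from group means it was 0.77 and 0.78.

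Other genes of the response were described from lists. Of 35 further immediate early genes, among them relatives of the members, 0 were called in any of the 11 comparisons. Over the 3 ages their median genotype difference was 0.01, against 0 for all genes and 0.13 for the 10 members. Their mean had an r of -0.06 with the members' mean over 18 arrays, on deviations from group means, and 4 of the 35 had r above 0.5. Of 16 genes of ERK feedback and delayed response, 0 were called in any comparison, with a median genotype difference of 0. Their mean had an r of 0.70 (rho = 0.63) with the members' mean, and 5 of the 16 had r above 0.5. The same r was 0.68 for heat shock, 0.62 for skeletal muscle and 0.51 for luminal epithelium genes, and -0.61 for white adipocyte genes. Nothing particular to ERK feedback is read from it. For 21 upstream kinases and factors this r was -0.61 (rho = -0.60), with 1 above 0.5 and 6 below -0.5, where 8.42% of all genes lay. Among 18 heat shock genes, a record of protein-folding stress, 0 were called between genotypes and 1, the chaperone gene Dnaja1, with age in RonTK+/+ glands. Of these 18 genes 11 had r above 0.5 with the members' mean, as had 21 of the 22 skeletal muscle genes and 14.1% of all genes. Heat shock genes, muscle genes and the members' mean thus moved together over the arrays. The mean does not stand for every member, because Ier2 and Junb had r of -0.15 and -0.04 with the mean of the other members. The part of heat shock, muscle and member values in each other was not tested.

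Of 16325 genes compared, Phf5a, which encodes a splicing factor subunit, was most like the members' mean deviation (r = 0.93 over 18 arrays). Rad23b (0.89), Nsfl1c (0.88), G3bp1 (0.87), Zcchc10 (0.87), Alas2 (0.87), Orai1 (0.86), Cyb5r4 (0.86), Crygs (0.85) and the noncoding RNA Redrum (0.85) followed. The lowest values were those of Zhx1 (-0.93), Cpq (-0.89), Robo3 (-0.88), Nlrp9a (-0.85) and Papss2 (-0.83). The 95th percentile over all these genes was 0.64. The arrays share their muscle content with each of these values, and the highest and lowest of so many genes are extreme by selection.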

How the data were processed

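The deposited values are linear ratios, found from the values because the labels name no unit: all are positive, and 87.37% of 45101 probe sets (10 of the 12 used here) have a RonTK+/+ median within 1e-4 of 1. The sources used here do not give how the authors summarised, background-corrected and scaled the arrays, and signal over background is unknown. The number of arrays limits precision. Log2 ratios were averaged over a gene's single-symbol probe sets, named from the platform annotation (18193 genes). limma 3.58.1 in R 4.3.3 fitted 6 group means to 18 arrays (12 residual and 1.94 prior degrees of freedom). p-values are two-sided and Benjamini-Hochberg adjusted over all genes, with 11 comparisons. Pairs used 1e+05 permutations. Scripts were tested on simulated data. Figures used Python 3.11.15 and matplotlib 3.10.9.

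The members and lists were chosen with earlier results of these data known. Named beside the members are the 10 genes most like and the 5 least like their mean deviation. Promoter motifs and the sets of pairs were picked after seeing values. Alternatives changed scaling, probe set averaging, low ratios, samples, covariates and array weights.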

Additional observations from a re-analysis of the deposited data

How the results depend on the processing

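With array weights, 2 members were called at 5 weeks between genotypes, 2 in the genotype by age test, 5 with age in RonTK+/+ and 7 in RonTK-/- glands, 1 and 5 in the RonTK+/+ steps from 5 to 6 and 6 to 7 weeks, and 6 and 3 in those of RonTK-/- glands. Of 18193 genes, the same weights called 3311, 5739, 9785 and 10539 in those tests, and 1002, 9592, 7611 and 4354 in the steps, in that order. With these weights, the genotype differences at 7 weeks became -0.12 for Atf3, -0.16 for Jun and -0.32 for Nr4a1. The RonTK-/- step from 5 to 6 weeks became -0.04 for Fosb. The weights ran from 0.218 to 50.8 and their estimation stopped before convergence. With the leading residual component as covariate, 5 members were called with age in RonTK-/- glands, 2 from 5 to 6 and 4 from 6 to 7 weeks. Of all genes, 3800, 1768 and 4056 were called in the same order. That component was taken from the residuals of these same data, so it lowers the residual spread by construction, and its calls are no support. With only the groups compared, 3 members were called from 6 to 7 weeks in RonTK-/- glands, among 3010 genes. None of the other settings called a member in any comparison, including those chosen after seeing the data (arrays of 1 muscle class, or all without the RonTK-/- arrays at 6 weeks). Leaving out each array in turn gave 0 members called throughout, and median member differences over the 3 ages of 0.06 to 0.22.

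Signs turned for Dusp1 (-0.11, RonTK-/- 6 to 7 weeks, B lymphocyte covariate) and for Fos (-0.16, RonTK+/+ 6 to 7 weeks, luminal covariate). In the 8 muscle-poor arrays they turned for Egr1 (-0.27) and Egr2 (-0.21) at 5 weeks and for Nr4a1 from 5 to 6 weeks in RonTK-/- glands (0.01). Junb was -0.06 in these arrays, against 0.21 over the 3 ages. That Junb value covers 5 and 6 weeks only, because no RonTK-/- array at 7 weeks was low in muscle transcripts. The 5-week values, which also enter that of Junb, are 1 array minus 1 array. The Nr4a1 value rests on a single 5-week array, so all of these say little about stability. A turned sign was counted only where the difference was at least its SE. The cause was not tested. Without the 2 farthest arrays the median r of the 45 pairs was 0.16. With the muscle covariate r was 0.53 for Jun and Nr4a1, 0.74 for Egr1 and Ier2 and -0.42 for Ier2 and Dusp1, and the members' median SD was 0.29. Quantile normalization gave 0.71 for Egr1 and Ier2.

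Replicate numbers gave no clear pairing of the arrays. Same-number pairs had r of -0.83 to 0.87, 23 of 45 over 0.1, and 7 of 18 arrays correlated best with their own number. The median r was 0.11 for same-number and -0.04 for different-number pairs. Muscle content also differs between these arrays, so the check cannot exclude a pairing. With a replicate block, 0 members were called, and the step from 6 to 7 weeks in RonTK-/- glands had an adjusted p of 0.164 for Nr4a1 in limma. Counts over all genes moved more. Genes called went from 11 over the ages to between 1 and 1238, from 2 to between 0 and 3311 at 5 weeks, from 3 to between 0 and 346 at 6 weeks, and from 6 to between 0 and 3872 at 7 weeks. They went from 0 to as many as 5739 in the genotype by age test, from 19 to between 0 and 9785 with age in RonTK+/+ glands, and from 7 to between 0 and 10539 in RonTK-/- glands. The highest counts came with array weights, except at 6 weeks, where they came with the residual component.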
